A study of Mus musculus with 12 samples.

Results

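The 31 genes described here are the semaphorins (20 genes), plexins (9 genes) and neuropilins (2 genes) of the mouse, taken by family name. All 31 were among the 18911 genes of the count table, and all 31 had more than 10 counts in total and so were among the 17076 genes tested. Semaphorins are secreted or membrane-bound ligands that share an extracellular sema domain, and plexins are their main receptors. Most class 3 semaphorins, which are secreted, need a neuropilin as the binding part of the receptor, whereas class 4 to class 7 semaphorins are anchored in the membrane and mostly bind plexins directly. Bound plexins act on the cytoskeleton, and in the developing brain the family is best known for repelling or attracting growing axons and migrating cells. In the hippocampus it also takes part in the targeting of mossy fibers.

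RNA-Seq was performed on neural progenitor cells (mNPCs) grown from the hippocampus of P0 pups on a C57BL/6J background, with 3 libraries for each of 4 genotypes. *Kmt2a+/+* is the wild type, and *Kmt2a+/LSL* carries on 1 allele a loxP-stop-loxP cassette in intron 1 that ends the transcript early. Nes-Cre+/- *Kmt2a+/+* carries the nestin-Cre transgene alone, and Nes-Cre+/- *Kmt2a+/LSL* carries both, so that Cre, driven in nestin-expressing neural cells before birth, can remove the cassette. Cells of all 4 genotypes were expanded with FGF-2 and EGF. The paper calls the samples within a genotype biological replicates, but nothing in the labels says whether the 3 libraries came from different pups. The p-values therefore measure the spread between these libraries, which may be partly technical. KMT2A is a histone H3 lysine 4 methyltransferase. The comparisons ask whether the LSL allele, its removal by Cre, or nestin-Cre alone goes with another level of these guidance genes.

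Library totals lay between 18280008 and 28596919 counts. *Kmt2a* had 3972 to 3991 normalized counts in the *Kmt2a+/LSL* libraries and between 6205 and 7427 in the libraries of the other 3 genotypes, so the *Kmt2a+/LSL* libraries followed their label. The level of *Kmt2a* does not tell the other 3 genotypes apart, and the Cre transgene was not analysed here. A normalized count is a count scaled to the mean library size after TMM normalization. The 10 neural progenitor markers summed to between 5462 and 12812 CPM (the count relative to the TMM-scaled library size), with *Nes* and *Sox2* present in every library. Of the 8 microglia markers, 2 have no row in the table and 4 had a median of 3 counts or fewer, and that list summed to at most 2.08 CPM. Endothelial markers summed to at most 14.7, without a row for *Cldn5*. *Kmt2a+/+* replicate 1 stood apart before any comparison. It correlated with the other libraries of its genotype at a median r of 0.752, against 0.847 to 0.979 for the other 11. This library was also low in oligodendrocyte-lineage markers (1199 CPM against 3445 to 5559), in astrocyte markers (559 against 1013 to 2844), in ependymal and choroid markers (4.40 against 14.0 to 34.7) and in mural and fibroblast markers (1.13 against 3.13 to 14.1). It was highest in neural progenitor markers (12812 against 5462 to 8036) and in neuron markers (1924 against 1024 to 1729). Those sums were carried mostly by *Fabp7* and *Vim* and by *Map2*. Members of both lists went both ways. The library was also the highest of the 12 for *Pax6*, *Dcx*, *Snap25* (16.2 against 3.82 to 7.92) and *Syt1*. It was the lowest of the 12 for *Sox2*, *Hes5* (2.14 against 45.8 to 160), *Msi1*, *Tubb3* (3.03 against 11.5 to 28.2) and *Rbfox3*. The part of these marker differences in the results that follow was not tested. In bulk RNA a smaller number of cells of a type cannot be told apart from less RNA per cell. Counts of members in the edgeR tests that include *Kmt2a+/+* are therefore given with and without that library.

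The progenitors carried the message for a broad set of ligands and receptors, led by B plexins and class 6 semaphorins. Levels between genes are given per length, as CPM per kilobase of exon, with the median and the range over the 12 libraries. On this scale the median of all genes tested was 3.33, and 17 of the 31 genes lay above it. The 5 highest were *Plxnb2* at 75.6 (41.4 to 116), *Plxnb1* at 39.8 (7.50 to 60.9), *Sema6d* at 33.1 (29.3 to 53.5), *Sema6a* at 22.1 (18.1 to 26.0) and *Plxna1* at 19.1 (7.52 to 26.2). *Plxnb2* lay above 97.0% of all genes tested. With the length of the longest transcript in place of the union of exons, *Plxnb2* stayed first at 89.8, followed by *Sema6d* at 54.2 and *Plxnb1* at 44.1.

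**Figure D1:**
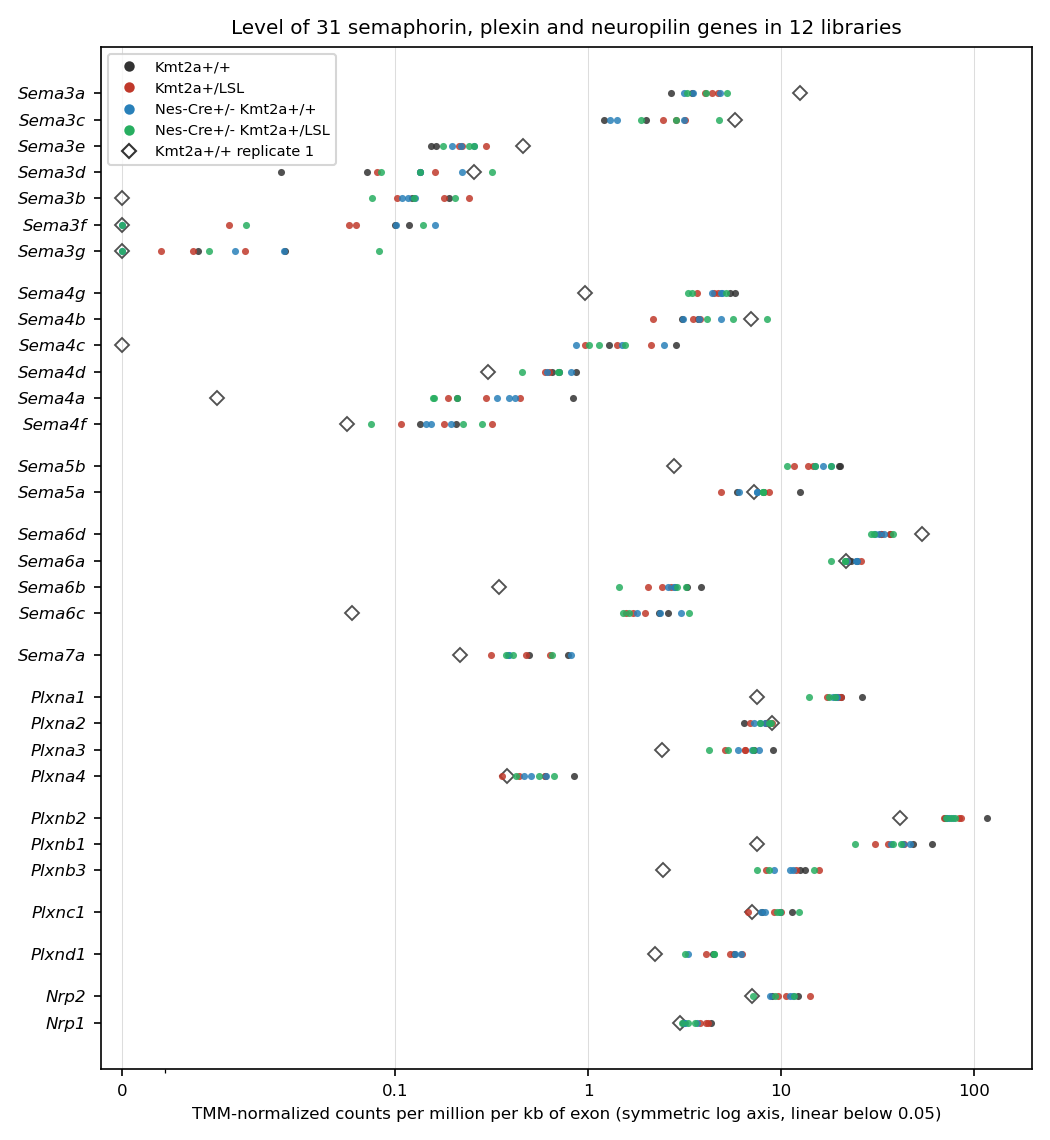
Level of each of the 31 genes (rows, grouped by class) in each of the 12 libraries, in TMM-normalized CPM per kilobase of exon on a symmetric log axis that is linear below 0.05. Filled points are libraries colored by genotype and open diamonds are Kmt2a+/+ replicate 1. Plxnb2 sits highest and Sema3g lowest, and the open diamond lies left of all other points for 18 genes and right of them for 4.

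Among the secreted class 3 ligands, *Sema3a* and *Sema3c* had levels near the median of all genes and the others were low. *Sema3a*, which repels axons through *Nrp1* and A plexins, had a level of 4.05 (2.70 to 12.6) CPM per kilobase. Its normalized counts were 4187, 898 and 1154 in *Kmt2a+/+* and 1573, 1452 and 1339 in *Kmt2a+/LSL*, and in the Nes-Cre+/- libraries 1606, 1158 and 1044 with *Kmt2a+/+* and 1746, 1079.5 and 1352 with *Kmt2a+/LSL*. *Kmt2a+/+* replicate 1 stood far above every other library, and the other 2 *Kmt2a+/+* libraries lay below all 3 *Kmt2a+/LSL* libraries. Both sets of Nes-Cre+/- libraries overlapped with those of the other genotypes. *Sema3c*, which binds both neuropilins, had a level of 2.65 (1.21 to 5.81). Its normalized counts were 995, 208 and 341 in *Kmt2a+/+* and 487, 421 and 545 in *Kmt2a+/LSL*, and in the Nes-Cre+/- libraries 539.5, 241 and 224 with *Kmt2a+/+* and 821, 492 and 322 with *Kmt2a+/LSL*. Here too *Kmt2a+/+* replicate 1 was highest, with Nes-Cre+/- *Kmt2a+/LSL* replicate 1 next, and the other 2 *Kmt2a+/+* libraries were among the 5 lowest. *Sema3e*, which signals through *Plxnd1* without a neuropilin, had a median level of 0.221, *Sema3d* 0.135 and *Sema3b* 0.124. *Sema3f*, the main ligand of *Nrp2*, had 103 counts in all 12 libraries together and *Sema3g* had 32, and each was at 0 in 3 libraries. Changes of *Sema3f* and *Sema3g* could hardly be measured at this depth, where 3 counts are worth 0.105 to 0.164 CPM.

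The transmembrane class 4 ligands held a median of 10.7% of the summed semaphorin level. *Sema4g* and *Sema4b* led the class, at 4.61 (0.968 to 5.80) and 3.79 (2.18 to 8.49) CPM per kilobase. *Sema4c*, a ligand of *Plxnb2*, had a median level of 1.35 and *Sema4d*, the classical ligand of *Plxnb1*, 0.677. The B plexins were thus far above their class 4 ligands in message, with *Plxnb1* at 39.8 beside *Sema4d* at 0.677. *Sema4a* and *Sema4f* lay at 0.253 and 0.166.

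Class 5 and class 6 ligands made up most of the semaphorin message. Class 6 held a median of 59.2% of the summed semaphorin level, with 54.1% to 62.5% in 11 libraries and 66.8% in *Kmt2a+/+* replicate 1. *Sema6d*, a transmembrane ligand of *Plxna1*, had normalized counts of 13542, 9279 and 8337 in *Kmt2a+/+* and 8305, 9274 and 8391 in *Kmt2a+/LSL*, and in the Nes-Cre+/- libraries 8614, 8124 and 7783 with *Kmt2a+/+* and 9628, 7414 and 7705 with *Kmt2a+/LSL*. Apart from *Kmt2a+/+* replicate 1, which was highest, the libraries lay within 1.3-fold of each other and the genotypes overlapped. *Sema6a*, a ligand of *Plxna2* and *Plxna4* that acts in hippocampal mossy fiber targeting, had normalized counts of 4580.0, 5211 and 4827 in *Kmt2a+/+* and 4653, 5478 and 4587 in *Kmt2a+/LSL*, and in the Nes-Cre+/- libraries 4633, 5158 and 5205 with *Kmt2a+/+* and 4519, 3801 and 4490.4 with *Kmt2a+/LSL*. The 3 Nes-Cre+/- *Kmt2a+/LSL* libraries were the 3 lowest of the 12. *Sema6d* exceeded *Sema6a* per length in all 12 libraries, by 1.24-fold to 2.46-fold. *Sema6b* and *Sema6c* were lower, at medians of 2.76 and 1.88.

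Class 5 semaphorins, which carry thrombospondin repeats next to the sema domain, held a median of 22.3% of the semaphorin level. *Sema5b* had normalized counts of 476, 3382 and 3433 in *Kmt2a+/+* and 1989.6, 2483 and 2357 in *Kmt2a+/LSL*, and in the Nes-Cre+/- libraries 3084, 2549 and 2796 with *Kmt2a+/+* and 1831, 3079 and 2543 with *Kmt2a+/LSL*. It was far lowest in *Kmt2a+/+* replicate 1 and highest in the other 2 *Kmt2a+/+* libraries. *Sema5a* was at 7.77 (4.92 to 12.5) CPM per kilobase, below *Sema5b* in 11 of 12 libraries and 2.57-fold above it in *Kmt2a+/+* replicate 1. *Sema7a*, the GPI-anchored ligand of *Plxnc1*, was low at 0.445 (0.216 to 0.813).

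B plexins dominated the receptor side. The 3 B plexins held a median of 67.3% of the summed plexin and neuropilin level, with 66.4% to 72.2% in 11 libraries and 57.0% in *Kmt2a+/+* replicate 1. *Plxnb2*, a receptor that cerebellar granule cell progenitors need to proliferate and migrate normally, had normalized counts of 7667, 13098 and 21527 in *Kmt2a+/+* and 15491, 12997 and 15853 in *Kmt2a+/LSL*, and in the Nes-Cre+/- libraries 14464, 13813 and 13473 with *Kmt2a+/+* and 13281, 14134 and 14792 with *Kmt2a+/LSL*. The *Kmt2a+/+* libraries held both the lowest and the highest value, and the other 9 lay in between. *Plxnb1* had normalized counts of 1723, 13989 and 11058 in *Kmt2a+/+* and 7092, 10030.4 and 8292 in *Kmt2a+/LSL*, and in the Nes-Cre+/- libraries 8547, 9851 and 10729 with *Kmt2a+/+* and 5585, 8704 and 9591 with *Kmt2a+/LSL*. Its lowest library was again *Kmt2a+/+* replicate 1, and its highest were the other 2 of that genotype. *Plxnb2* exceeded *Plxnb1* per length in all 12 libraries, by 1.16-fold to 2.95-fold in 11 of them. *Plxnb3*, a receptor of *Sema5a* found mostly in the oligodendrocyte lineage, was the lowest of the class at 11.4 (2.44 to 15.7).

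A plexins, the partners of neuropilins and receptors of class 6 ligands, held a median of 17.8% of the receptor level. *Plxna1* had normalized counts of 1632, 4462 and 5690.0 in *Kmt2a+/+* and 4452, 3762 and 4277 in *Kmt2a+/LSL*, and in the Nes-Cre+/- libraries 4174, 4255 and 4022 with *Kmt2a+/+* and 3038, 4127 and 3833 with *Kmt2a+/LSL*. *Kmt2a+/+* replicate 1 was lowest and *Kmt2a+/+* replicate 3 highest. *Plxna2* and *Plxna3* followed at 8.31 (6.40 to 8.99) and 6.52 (2.41 to 9.06) CPM per kilobase, and *Plxna4*, a receptor of *Sema6a*, was low at 0.529 (0.359 to 0.851). *Plxna4* had normalized counts of 128, 288 and 203 in *Kmt2a+/+* and 121, 202 and 148 in *Kmt2a+/LSL*, and in the Nes-Cre+/- libraries 157, 206 and 170.4 with *Kmt2a+/+* and 187, 143 and 226 with *Kmt2a+/LSL*. The lowest value was in a *Kmt2a+/LSL* library and the highest in a *Kmt2a+/+* library, with overlap. *Plxnc1*, the receptor of *Sema7a*, had normalized counts of 1418, 2275 and 1594 in *Kmt2a+/+* and 1356, 2013 and 1849 in *Kmt2a+/LSL*, and in the Nes-Cre+/- libraries 1975, 1584 and 1649 with *Kmt2a+/+* and 1986, 2483 and 1914 with *Kmt2a+/LSL*. It overlapped between all genotypes. *Plxnd1*, the receptor of *Sema3e*, had normalized counts of 389, 773 and 999 in *Kmt2a+/+* and 1094, 715 and 948 in *Kmt2a+/LSL*, and in the Nes-Cre+/- libraries 580.4, 1084 and 1015 with *Kmt2a+/+* and 559, 789.7 and 785 with *Kmt2a+/LSL*. *Kmt2a+/+* replicate 1 was lowest and a *Kmt2a+/LSL* library highest, with overlap between all genotypes.

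Both neuropilins were present, with *Nrp2* above *Nrp1* per length in all 12 libraries by 2.19-fold to 3.64-fold. The median ratio was 2.84 with the union of exons and 1.86 with the longest transcript. *Nrp2*, the binding receptor of *Sema3f*, had normalized counts of 2018, 3466 and 2546 in *Kmt2a+/+* and 2750.1, 3990.2 and 3032 in *Kmt2a+/LSL*, and in the Nes-Cre+/- libraries 3155, 2481 and 3281 with *Kmt2a+/+* and 2039.9, 2656 and 3313 with *Kmt2a+/LSL*. *Nrp1*, the binding receptor of *Sema3a* and of some VEGF isoforms, had normalized counts of 703, 1021 and 731 in *Kmt2a+/+* and 893, 977 and 954 in *Kmt2a+/LSL*, and in the Nes-Cre+/- libraries 739, 866 and 744 with *Kmt2a+/+* and 771, 718 and 837 with *Kmt2a+/LSL*. For *Nrp1* the 3 *Kmt2a+/LSL* libraries were among the 4 highest of the 12, behind 1 *Kmt2a+/+* library.

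*Kmt2a+/+* replicate 1 differed from the other 11 libraries along the base composition of the transcripts, and the family is rich in G and C. The median GC content of the longest transcript was 56.2% over the 31 genes, from 39.2% in *Sema3d* to 63.5% in *Sema6b*, against 49.7% over all genes tested with a transcript sequence. That library had the lowest value of the 12, below all others, for 18 of the 31 genes (58.1%), beside 34.1% of all genes tested. It had the highest value for 4 genes (12.9%), beside 30.0% of all genes. The 4 highest were *Sema3a*, *Sema3c*, *Sema3e* and *Sema6d*. The 18 lowest included *Plxnb1*, *Plxnb2*, *Plxna1*, *Sema5b*, *Sema6b*, *Sema6c* and *Sema4c*. *Sema6c*, at 61.5% GC, had 8.55 normalized counts in that library and 217 to 472 in the others. *Sema4c* had 0 there and 95.3 to 313 elsewhere.

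To show the difference in composition, 60 bases from the middle of the coding sequence are printed for the 2 genes with the highest and the 2 with the lowest relative value in *Kmt2a+/+* replicate 1 among those with a mean of 50 counts or more, and for *Sema4b*, which did not follow composition (GENCODE release 21, GRCm38, 5′ to 3′ on the coding strand, G and C in capitals).
Sema3a: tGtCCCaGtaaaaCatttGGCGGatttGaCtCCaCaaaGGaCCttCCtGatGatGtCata
Sema3c: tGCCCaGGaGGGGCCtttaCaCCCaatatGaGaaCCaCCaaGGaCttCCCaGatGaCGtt
Sema4c: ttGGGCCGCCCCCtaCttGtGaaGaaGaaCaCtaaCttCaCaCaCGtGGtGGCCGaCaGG
Sema6c: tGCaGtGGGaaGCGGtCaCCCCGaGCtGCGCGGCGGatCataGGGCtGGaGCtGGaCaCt
Sema4b: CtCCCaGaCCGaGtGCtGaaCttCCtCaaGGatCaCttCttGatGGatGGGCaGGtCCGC
They lie in exon 11 of 17 of *Sema3a* (chromosome 5, 13565751 to 13565810, plus strand), exon 12 of 18 of *Sema3c* (chromosome 5, 17694643 to 17694702, plus strand), exon 11 of 15 of *Sema4c* (chromosome 1, 36551976 to 36552035, minus strand), exon 16 of 21 of *Sema6c* (chromosome 3, 95170752 to 95170811, plus strand) and exon 11 of 15 of *Sema4b* (chromosome 7, 80220169 to 80220228, plus strand). G and C make up 26, 32, 34, 40 and 34 of the 60 bases, in that order. Over the whole coding sequence their share was 45.8% in *Sema3a*, 47.2% in *Sema3c*, 57.2% in *Sema4c*, 63.1% in *Sema6c* and 57.9% in *Sema4b*.

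On a log2 scale with 1 added, the distance of *Kmt2a+/+* replicate 1 from the median of the other 11 libraries fell with GC content over the 31 genes, with a Spearman rho of -0.76. Over 11622 genes with a mean of 50 counts or more rho was -0.78. All points of such a value come from 1 library, and it is given as a description. In the other libraries rho over the 31 genes ran from -0.66 in Nes-Cre+/- *Kmt2a+/LSL* replicate 1 to 0.76 in *Kmt2a+/+* replicate 3, but there 0 to 2 genes lay more than 2-fold below the median of the rest, against 17 in *Kmt2a+/+* replicate 1. Some members departed from the median of genes of like GC content with a mean of 50 counts or more. *Sema6c* lay -2.61 from it, and *Sema4c* had 0 counts in that library, so that its distance is not a measured value. *Sema4b* departed in the other direction, by 2.39, at 56.6% GC.

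**Figure D2:**
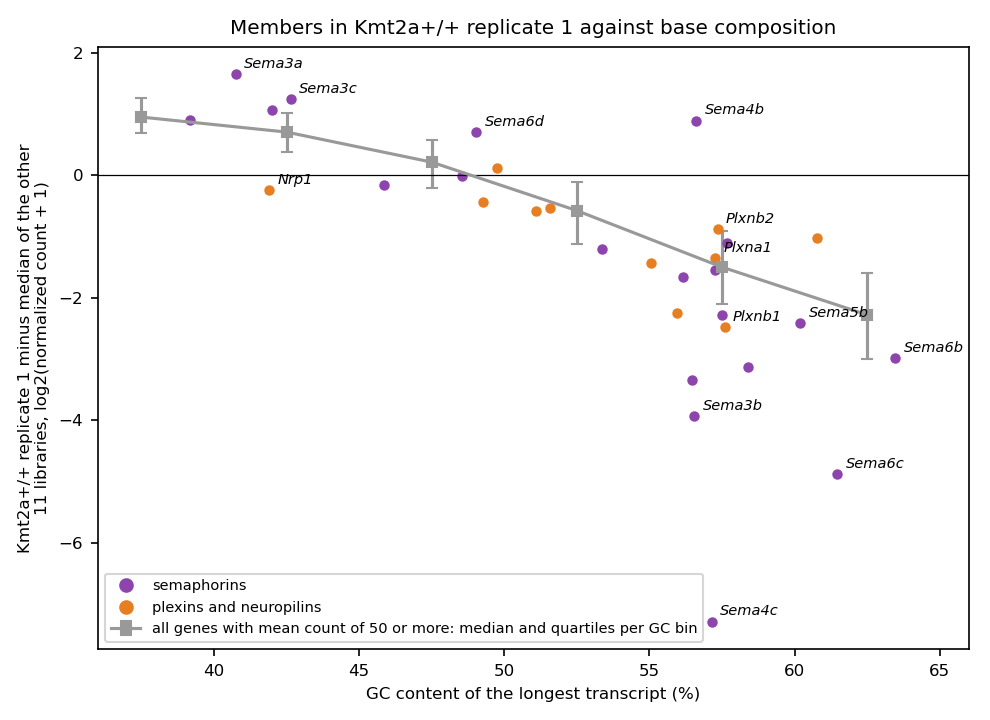
Distance of Kmt2a+/+ replicate 1 from the median of the other 11 libraries (log2 of the normalized count with 1 added, y axis) against the GC content of the longest transcript in percent (x axis) for the 31 genes. Gray squares are the medians of all genes with a mean count of 50 or more in bins of GC content, with quartiles as bars, and they fall from 0.95 to -2.28. Members fall with GC content too, and among those far from the squares are Sema4b above and Sema4c and Sema6c below.

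No member passed the test between *Kmt2a+/LSL* and *Kmt2a+/+*. By edgeR's quasi-likelihood test the adjusted p was under 0.05 for 0 of the 31 genes (0% of all genes tested) and the unadjusted p for 0 (1.79% of all genes). The DESeq2 Wald test and limma-voom also called 0 of 31. The libraries of these genotypes did not overlap in 0 members that were higher (2.30% of all genes) and in 0 that were lower (1.76%). Median log2 fold change was -0.02 over the 31 genes and 0.00 over all genes tested, with 15 members above 0 and 16 below. Among members with a mean of 50 counts or more, the 3 with the smallest p were *Sema6d*, with a log2 fold change of -0.26 (adjusted p = 1.00, SE 0.19), *Sema4b* with -0.54 (adjusted p = 1.00, SE 0.36) and *Plxna4* with -0.40 (adjusted p = 1.00, SE 0.32). With 1 library left out at a time *Plxna4* ran from -0.64, without *Kmt2a+/+* replicate 1, to -0.08, without *Kmt2a+/+* replicate 2. Without *Kmt2a+/+* replicate 1 the difference of *Sema6d* was -0.02 (adjusted p = 0.967, SE 0.14) and that of *Sema4b* -0.10 (adjusted p = 0.927, SE 0.31). With the GC offset and all libraries *Sema4b* had -1.30 (adjusted p = 1.00, SE 0.61). The SE of a member's log2 fold change had a median of 0.47.

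Leaving out *Kmt2a+/+* replicate 1 lowered the median SE of the members to 0.27 and moved most of them. The median log2 fold change became -0.23 over the members and 0.00 over all genes, with 10 above 0 and 21 below. Adjusted p was under 0.05 for 0 of 31 members (0.0118% of all genes), and 3 had an unadjusted p under 0.05 (9.68%), beside 8.95% of all genes. These were *Sema5b* at -0.58 (adjusted p = 0.551, SE 0.19), *Plxnb1* at -0.56 (adjusted p = 0.551, SE 0.22) and *Plxna4* at -0.64 (adjusted p = 0.551, SE 0.27), all lower in *Kmt2a+/LSL*. With all libraries *Sema5b* had -0.10 (adjusted p = 1.00, SE 0.52) and *Plxnb1* -0.08 (adjusted p = 1.00, SE 0.53). Between the 3 *Kmt2a+/LSL* libraries and the other 2 *Kmt2a+/+* libraries, 4 members were higher without overlap (12.9%, beside 14.8% of all genes), namely *Sema3a*, *Sema3c*, *Sema3d* and *Sema3e*. Another 9 were lower without overlap (29%, beside 14.0%), namely *Sema3f*, *Sema4g*, *Sema5b*, *Sema6b*, *Sema6c*, *Plxna1*, *Plxna3*, *Plxna4* and *Plxnb1*. The class 3 ligands thus went both ways, and *Sema3b* and *Sema3g* of that class overlapped. *Sema3d* and *Sema3f* are low-count members, with 8 to 32 and 3 to 18 counts in these libraries. *Sema3a* went from -0.51 (adjusted p = 1.00, SE 0.47) with all libraries to 0.50 (adjusted p = 0.553, SE 0.23) without that library, and *Plxna1* from 0.08 (adjusted p = 1.00, SE 0.34) to -0.29 (adjusted p = 0.573, SE 0.15). Both thus changed direction with 1 library.

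The 13 separated genes also differ in base composition. The 4 higher ones have 4 of the 5 lowest GC contents of the family, at 39.2% to 42.7%, and the 9 lower ones lie at 51.6% to 63.5%. *Kmt2a+/+* replicate 3, which remained in the fit, had a rho of 0.76 with GC content in the opposite direction to the library left out. With an offset for GC content in the fit without *Kmt2a+/+* replicate 1, added after the values were seen, *Sema5b* had -0.29 (adjusted p = 0.941, SE 0.13), *Plxnb1* -0.34 (adjusted p = 0.941, SE 0.20) and *Plxna4* -0.57 (adjusted p = 0.941, SE 0.28), and the median over the members was -0.11, with 0.00 over all genes. In that fit the 4 higher genes stayed above 0, with 0.16 (adjusted p = 0.949, SE 0.21) for *Sema3a*, 0.55 (adjusted p = 0.941, SE 0.43) for *Sema3c*, 0.78 (adjusted p = 0.941, SE 0.58) for *Sema3d* and 0.34 (adjusted p = 0.941, SE 0.28) for *Sema3e*. Without the offset *Sema3c* had 0.81 (adjusted p = 0.578, SE 0.45), *Sema3d* 1.18 (adjusted p = 0.572, SE 0.61) and *Sema3e* 0.62 (adjusted p = 0.561, SE 0.30).

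**Figure D3:**
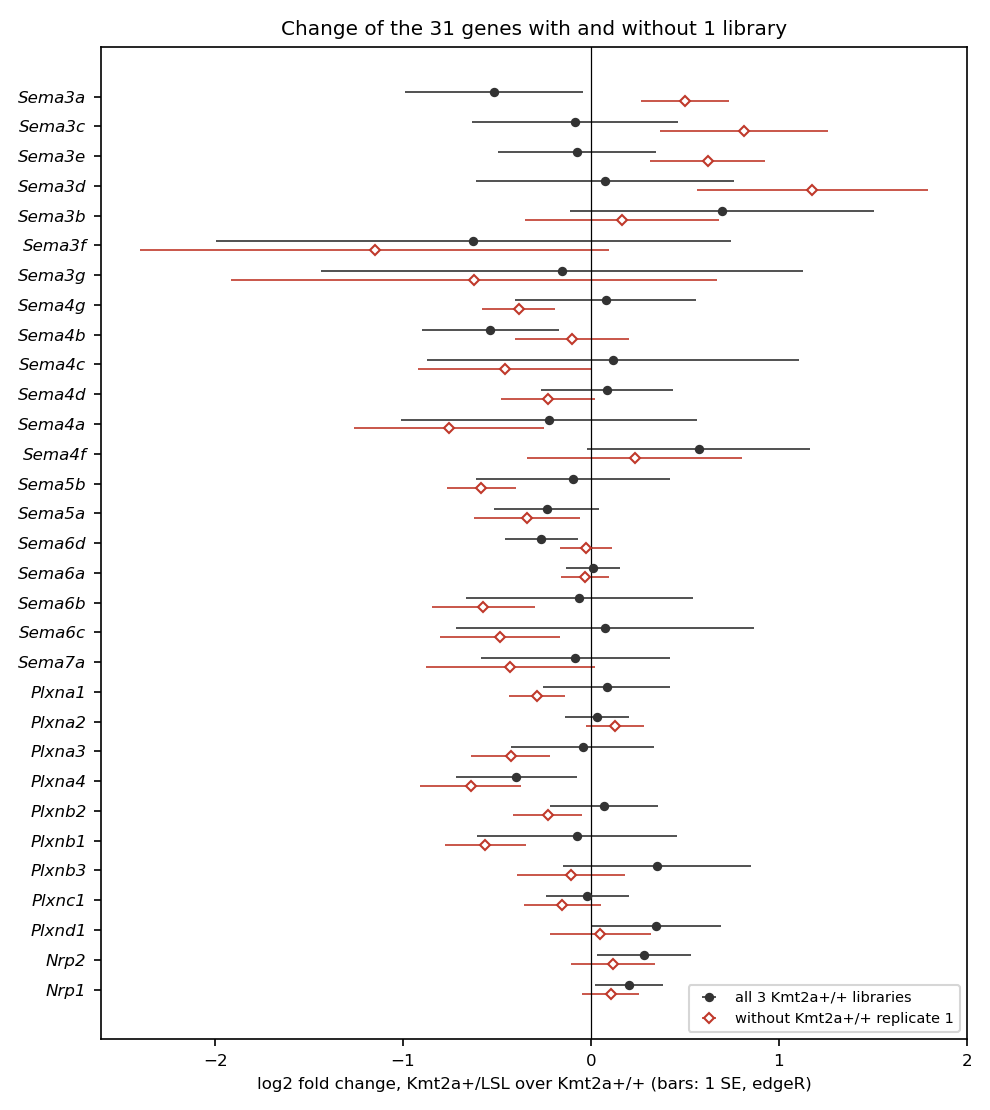
Log2 fold change of each of the 31 genes in Kmt2a+/LSL over Kmt2a+/+ (x axis, with 1 SE as bars, edgeR) with all 3 Kmt2a+/+ libraries (filled circles) and without Kmt2a+/+ replicate 1 (open diamonds). Sema3a, Sema3c, Sema3d and Sema3e move right and many GC-rich members such as Plxnb1 and Sema5b move left when the library is left out.

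Nes-Cre+/- *Kmt2a+/LSL* was compared with *Kmt2a+/LSL*, and neither includes the library that stood apart. These genotypes differ in the nestin-Cre transgene as well as in the removal of the cassette. This comparison cannot tell the transgene and the removal apart, for any of the members named below. By edgeR 0 of 31 members had an adjusted p under 0.05 (0% of all genes) and 1 had an unadjusted p under 0.05 (3.23%, beside 1.61% of all genes, and 3.89% of all genes without *Kmt2a+/+* replicate 1). DESeq2's Wald test and limma-voom called 0 of 31. The libraries did not overlap in 1 member that was higher (3.23%, beside 3.54% of all genes) and 2 that were lower (6.45%, beside 3.57%). The median log2 fold change was -0.06 over the members and 0.00 over all genes. An empirical null fitted to the DESeq2 z-scores called 2 members (6.45%, beside 5.53% of all genes), *Sema4b* and *Nrp1*.

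*Sema4b*, a transmembrane class 4 semaphorin (GRCm38 chromosome 7, 80186841 to 80226527, plus strand), was the member with the smallest p in any comparison. Its normalized counts were 945, 505 and 414 in *Kmt2a+/+* and 516, 295 and 473 in *Kmt2a+/LSL*, and in the Nes-Cre+/- libraries 421, 509 and 660.5 with *Kmt2a+/+* and 765, 562 and 1148 with *Kmt2a+/LSL*. All 3 Nes-Cre+/- *Kmt2a+/LSL* libraries lay above all 3 *Kmt2a+/LSL* libraries, while *Kmt2a+/+* and Nes-Cre+/- *Kmt2a+/+* overlapped with both. Its log2 fold change between those 2 genotypes was 0.95 (adjusted p = 1.00, SE 0.37). Without *Kmt2a+/+* replicate 1 it was 0.93 (adjusted p = 1.00, SE 0.27), and with the GC offset 1.03 (adjusted p = 1.00, SE 0.61). It ran from 0.63, without Nes-Cre+/- *Kmt2a+/LSL* replicate 3, to 1.16 with 1 library left out at a time. Over 26 alternatives the adjusted p ran from 7.7e-05, with the empirical null, to 1.00. In *Kmt2a+/LSL* against the mean of the other 3 genotypes the log2 fold change was -0.60 (adjusted p = 1.00, SE 0.31), and without *Kmt2a+/+* replicate 1 -0.45 (adjusted p = 1.00, SE 0.23). With all libraries an exact permutation test of the 3 *Kmt2a+/LSL* libraries against the other 9 gave p = 0.132 (two-sided, 220 arrangements, smallest possible p 0.00455).

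*Nrp1* (chromosome 8, 128358604 to 128503363, plus strand) and *Sema6a* were the members that were lower without overlap in Nes-Cre+/- *Kmt2a+/LSL* than in *Kmt2a+/LSL*. *Nrp1* differed by -0.28 (adjusted p = 1.00, SE 0.18), and over 26 alternatives its adjusted p ran from 0.0310, with the empirical null, to 1.00. Against the mean of the other genotypes *Nrp1* in *Kmt2a+/LSL* differed by 0.25 (adjusted p = 1.00, SE 0.15), and without *Kmt2a+/+* replicate 1 by 0.22 (adjusted p = 1.00, SE 0.11). With all libraries the exact permutation test against the other 9 libraries gave p = 0.0364 (two-sided, unadjusted), the smallest of the 31 members tested this way. *Sema6a* differed by -0.20 (adjusted p = 1.00, SE 0.14), and with 1 library left out at a time by -0.25 to -0.11, the latter without *Kmt2a+/LSL* replicate 2.

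**Figure D4:**
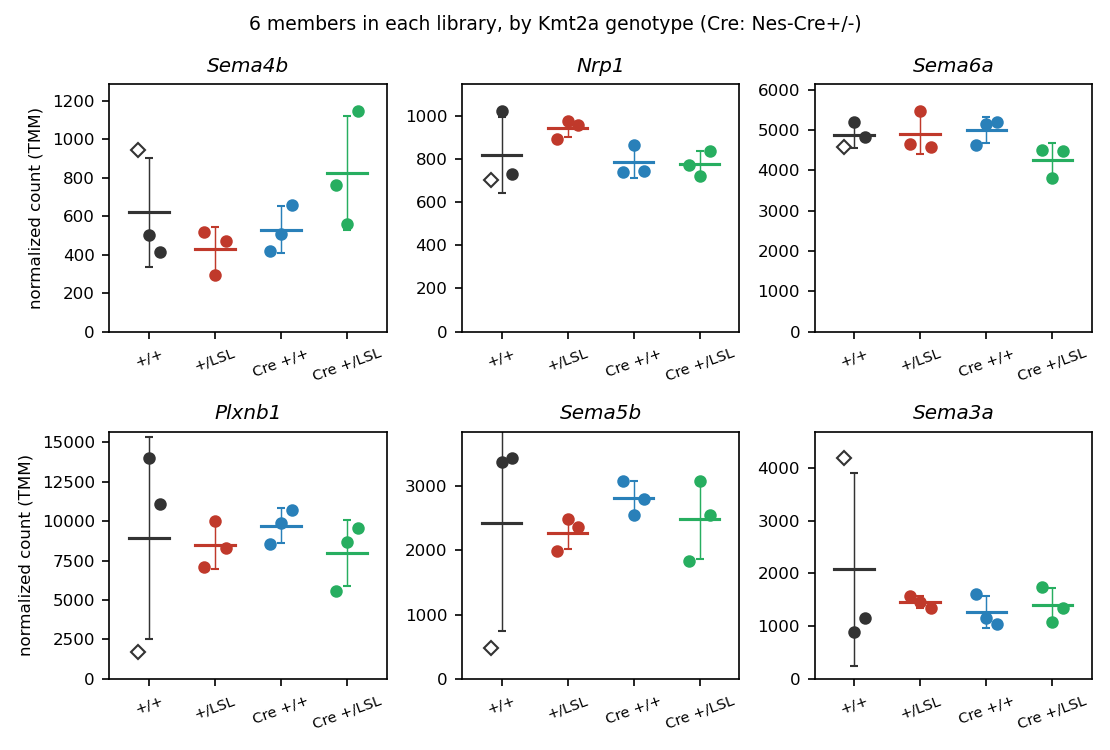
TMM-normalized counts (y axis) of 6 genes in each library by genotype (x axis; Cre stands for Nes-Cre+/-). Points are libraries, the open diamond is Kmt2a+/+ replicate 1, horizontal lines are means and vertical bars 1 SD (n = 3). Sema4b is higher in all 3 Nes-Cre+/- Kmt2a+/LSL libraries than in the 3 Kmt2a+/LSL libraries, and Plxnb1, Sema5b and Sema3a show the wide spread of Kmt2a+/+.

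Nestin-Cre alone was compared in Nes-Cre+/- *Kmt2a+/+* against *Kmt2a+/+*. Here 0 of 31 members had an adjusted p under 0.05 by edgeR (0% of all genes) and 0 an unadjusted p under 0.05 (1.40% of all genes), and the DESeq2 Wald test and limma-voom called 0. No member was higher without overlap (2.82% of all genes) and none was lower (1.53%). *Sema3a*, *Sema3c* and *Sema6d* had the smallest p-values, with log2 fold changes of -0.71 (adjusted p = 1.00, SE 0.47), -0.62 (adjusted p = 1.00, SE 0.55) and -0.35 (adjusted p = 1.00, SE 0.19). Without *Kmt2a+/+* replicate 1 they were 0.30 (adjusted p = 0.767, SE 0.23), 0.28 (adjusted p = 0.896, SE 0.44) and -0.11 (adjusted p = 0.860, SE 0.14), so that *Sema3a* and *Sema3c* changed direction. Over all 31 members the direction changed for 23, from 20 above 0 with all libraries to 7 without that one. Adjusted p was then under 0.05 for 0 members (0% of all genes) and unadjusted p for 1 (3.23%, beside 6.09% of all genes), *Sema3d* at 1.56 (adjusted p = 0.733, SE 0.62), a low-count member. Without that library 2 members were higher without overlap (6.45%, beside 15.7% of all genes), *Sema3d* and *Sema3e*, and 6 were lower (19.4%, beside 13.6%), namely *Sema4g*, *Sema5b*, *Sema6b*, *Plxna1*, *Plxnb1* and *Plxnb3*. These comparisons share the *Kmt2a+/+* libraries with the one above. For *Plxnb1* the other 2 *Kmt2a+/+* libraries had 13989 and 11058 normalized counts against at most 10729 in the 9 libraries of the other genotypes.

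Nes-Cre+/- *Kmt2a+/LSL* was compared with its nestin-Cre control, Nes-Cre+/- *Kmt2a+/+*. By edgeR 0 of 31 members had an adjusted p under 0.05 (0% of all genes) and 0 an unadjusted p under 0.05 (1.11% of all genes), and the DESeq2 Wald test and limma-voom called 0. *Sema5a* was higher without overlap (1 member, 3.23%, beside 3.10% of all genes), and *Sema4a* and *Sema6a* were lower (2 members, 6.45%, beside 3.58%). For *Sema5a* the 3 Nes-Cre+/- *Kmt2a+/LSL* libraries had 3609.8, 3634 and 3607 normalized counts and the controls 3350.0, 2704 and 3351. The 3 members named for this comparison were *Sema4b* with 0.64 (adjusted p = 1.00, SE 0.36), *Sema6a* with -0.23 (adjusted p = 1.00, SE 0.14) and *Plxnc1* with 0.29 (adjusted p = 1.00, SE 0.22). With 1 library left out at a time *Sema4b* ran from 0.32, without Nes-Cre+/- *Kmt2a+/LSL* replicate 3, to 0.85, *Sema6a* from -0.28 to -0.15, without Nes-Cre+/- *Kmt2a+/LSL* replicate 2, and *Plxnc1* from 0.17 to 0.40. *Sema4a*, a low-count member with 488 counts in all, had -1.12 (adjusted p = 1.00, SE 0.81). Neither genotype holds *Kmt2a+/+* replicate 1, but without it the spread estimate shared by all genotypes was smaller. Adjusted p was then under 0.05 for 0 members (0% of all genes) and unadjusted p for 2 (6.45%, beside 3.23% of all genes), *Sema4a* and *Sema4b*.

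Across all 4 genotypes together 0 of 31 members had an adjusted p under 0.05 (0% of all genes) and 0 an unadjusted p under 0.05 (1.15% of all genes). Without *Kmt2a+/+* replicate 1 the counts were 0 (0.0177% of all genes) and 3 (9.68%, beside 5.35% of all genes), namely *Sema4b*, *Sema5b* and *Plxnb1*, each with an adjusted p of 0.829 by edgeR. For *Kmt2a+/LSL* against the mean of the other 3 genotypes the counts were 0 (0.00586% of all genes) and 0 (1.20%), and the empirical null called 1 member, *Sema4b* (3.23%, beside 2.57% of all genes). Without *Kmt2a+/+* replicate 1 edgeR gave 0 members with an adjusted p under 0.05 (0.0118% of all genes) and 1 with an unadjusted p under 0.05 (3.23%, beside 2.87%), *Sema5b* at -0.33 (adjusted p = 1.00, SE 0.14). The effect of the LSL allele with nestin-Cre minus the effect without it, a comparison added after the values were seen, gave 0 members with an adjusted p under 0.05 (0% of all genes) and 1 with an unadjusted p under 0.05 (3.23%, beside 1.73%). That member was again *Sema4b*, at 1.17 (adjusted p = 1.00, SE 0.52), and without *Kmt2a+/+* replicate 1 it had 0.73 (adjusted p = 0.995, SE 0.41). With the GC offset it had 2.04 (adjusted p = 1.00, SE 0.86) with all libraries and 0.65 (adjusted p = 1.00, SE 0.43) without that one. Without that library and with no offset 0 members had an adjusted p (0% of all genes) or an unadjusted p (3.31%) under 0.05. In both of these comparisons and across the 4 genotypes the DESeq2 test and limma-voom called 0 of 31 members.

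Of 14 co-receptors and other ligands that act with the family, all 14 were tested and 0 had an adjusted p under 0.05 in any of the 7 comparisons by edgeR with all libraries, beside 0% to 0.00586% of all genes. *Mical1* and *Dpysl2*, which are not among the 14, act downstream of the receptors. *Mical1*, an actin-oxidizing enzyme that binds A plexins, had normalized counts of 169.6, 636 and 513 in *Kmt2a+/+* and 297, 378 and 384 in *Kmt2a+/LSL*, and in the Nes-Cre+/- libraries 398, 598 and 685 with *Kmt2a+/+* and 381, 625 and 509 with *Kmt2a+/LSL*. It was lowest in *Kmt2a+/+* replicate 1, with the 3 *Kmt2a+/LSL* libraries among the 4 next lowest. Its log2 fold change in *Kmt2a+/LSL* against the mean of the others was -0.50 (adjusted p = 1.00, SE 0.34), and without *Kmt2a+/+* replicate 1 it was -0.62 (adjusted p = 1.00). *Dpysl2*, a collapsin response mediator of *Sema3a* signaling, had normalized counts of 1039, 1829.6 and 1465 in *Kmt2a+/+* and 1645, 1724 and 1529.8 in *Kmt2a+/LSL*, and in the Nes-Cre+/- libraries 1448, 1866 and 1823 with *Kmt2a+/+* and 1478, 1651 and 2639 with *Kmt2a+/LSL*, which overlapped between genotypes. *Met*, the hepatocyte growth factor receptor that can associate with B plexins, was named after its values were seen. With all libraries its unadjusted edgeR p was under 0.05 in Nes-Cre+/- *Kmt2a+/LSL* against *Kmt2a+/LSL* (1 of 14, beside 1.61% of all genes). The same held in *Kmt2a+/LSL* against the mean of the others (1 of 14, beside 1.20%). Its normalized counts were 15.7, 16.2 and 15.6 in *Kmt2a+/+* and 37.7, 22.4 and 26.8 in *Kmt2a+/LSL*, and in the Nes-Cre+/- libraries 10.7, 14.3 and 22.8 with *Kmt2a+/+* and 16.7, 12.6 and 12.0 with *Kmt2a+/LSL*. Of its *Kmt2a+/LSL* libraries 2 lay above all other 9 and 1 lay just below the highest of those, with a log2 fold change against the mean of the others of 0.93 (adjusted p = 1.00, SE 0.31), or 0.94 (adjusted p = 1.00) without *Kmt2a+/+* replicate 1. In the fit without that library *Chl1*, *Erbb2* and *Cd72* of the 14 also had an unadjusted p under 0.05. These were *Chl1* and *Erbb2* in *Kmt2a+/LSL* against *Kmt2a+/+* (2 of 14, beside 8.95% of all genes), *Erbb2* across the 4 genotypes (1 of 14, beside 5.35%) and *Cd72* in the difference of the LSL effects (1 of 14, beside 3.31%), and 0 of the 14 had an adjusted p under 0.05.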

How the data were processed

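RNA of mNPCs was measured in 12 libraries as poly(A)-selected RNA-Seq. The authors pseudoaligned the reads with kallisto (0.48.0, per the labels) to the mm10 transcriptome and imported them per gene, and the deposited values are estimated counts given as whole numbers and not normalized. Reads shared by transcripts were divided by that estimate. Groups and replicate numbers came from the labels, and the tests had been planned for counts. Symbols were matched to GENCODE mouse release 21 for 18735 of 18911 genes (99.1%). Genes needed over 10 counts summed over the libraries and a count in 2 or more of them. After TMM normalization they were tested in edgeR 4.0.16 (R 4.3.3; quasi-likelihood F-test on all 12 libraries, genotype as the only term, Benjamini-Hochberg adjusted p under 0.05, calls over all 17076 genes). Alternatives used DESeq2 1.42.0, an empirical null on its z-scores, limma 3.58.1 (voom), other filters, a replicate block, 9 libraries, and each library left out; offsets for GC content (loess span 0.5), combined settings and the comparison of the LSL effects were added after seeing the data. Tested on simulated data for *Kmt2a+/LSL* against *Kmt2a+/+*, the fit recovered 56% of 200 genes changed 3-fold among 16833 genes at the dispersions estimated per gene. Values for each library are given for the 8 members with the smallest p over the genotypes, the 3 with the smallest p per comparison (mean of 50 counts or more) and the 5 highest levels, and *Sema5b* was added after its values were seen. The members and lists were chosen with earlier results of these data known. Library totals bound counting error only. The count over 1 list of genes downstream of the receptors is not reported here.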

Additional observations from a re-analysis of the deposited data

How the results depend on the processing

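The count of called members was 0 of 31 in all 7 comparisons by edgeR with all libraries, and it remained 0 under every alternative run except the empirical null, which called 2 members in Nes-Cre+/- *Kmt2a+/LSL* against *Kmt2a+/LSL* and 1 in *Kmt2a+/LSL* against the mean of the others. With the replicate block it was 0 as well, but the block moved the balance of *Kmt2a+/LSL* against *Kmt2a+/+*, with a median log2 fold change of 0.16 over the members and 0.05 over all genes, 23 members above 0 and 8 below. Limma-voom, run with quality weights, moved it the other way, to a median of -0.20 over the members and 0.01 over all genes. There 10 members lay above 0 and 21 below. By that test 4 of 31 members had an unadjusted p under 0.05, beside 1312 of 17076 genes. Deviations of libraries with the same replicate number correlated at -0.136 to 0.588 (mean 0.137) and those with other numbers at -0.578 to 0.449 (mean -0.0653). The mean was higher for the same number, but the ranges overlapped, and the numbers were not taken to pair the libraries. Leaving out 1 library at a time, which makes separation easier, the members without overlap ranged from 0 to 13 in *Kmt2a+/LSL* against *Kmt2a+/+* and from 0 to 8 in Nes-Cre+/- *Kmt2a+/+* against *Kmt2a+/+*, both highest without *Kmt2a+/+* replicate 1 (41.9% and 25.8% of the members, beside 28.8% and 29.3% of all genes). They ranged from 3 to 7 in Nes-Cre+/- *Kmt2a+/LSL* against *Kmt2a+/LSL* (highest without *Kmt2a+/LSL* replicate 2, 22.6% beside 15.3%) and from 3 to 10 in Nes-Cre+/- *Kmt2a+/LSL* against Nes-Cre+/- *Kmt2a+/+* (highest without Nes-Cre+/- *Kmt2a+/LSL* replicate 2, 32.3% beside 21.9%). In Nes-Cre+/- *Kmt2a+/+* against *Kmt2a+/+* the direction reversed for 3 of the 4 members followed under every alternative, and for 23 of all 31 without *Kmt2a+/+* replicate 1. Their log2 fold changes with limma-voom, with DESeq2 and no *Kmt2a+/+* replicate 1, and with limma-voom and no *Kmt2a+/+* replicate 1 were 0.22, 0.30 and 0.19 for *Sema3a* and 0.18, 0.20 and 0.24 for *Sema4b*, and the first 2 were 0.070 and 0.28 for *Sema3c*. With the GC offset and no *Kmt2a+/+* replicate 1 they were 0.38 for *Sema4b* and 0.022 for *Sema3c*, and *Sema4b* was at 0.091 in *Kmt2a+/LSL* against *Kmt2a+/+*. With libraries left out the ranges were -1.07 to 0.30, -0.45 to 0.20 and -1.14 to 0.28. The cause was not tested. The self-test and the SE of the members set the limit. The self-test changed only genes with a mean of 50 normalized counts or more and recovered 56% of them. Changes of 3-fold in well-counted members could thus also be missed. Members with few counts lay outside the self-test. *Sema3f* and *Sema3g* had SEs of 1.37 and 1.28 in *Kmt2a+/LSL* against *Kmt2a+/+*, so that their changes could hardly be measured at this depth.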
